A study of Canis lupus familiaris with 2 samples.

Results

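The ATP-binding cassette (ABC) transporters of canine glioma cells were compared between J3T-1 and J3T-2, subclones of a single parental glioma line that were reported to differ in invasion and angiogenesis. Members were all genes whose array symbol was ABC followed by a subfamily letter from A to G and a number, taken from probe sets with exactly 1 gene symbol. This gave 39 genes on 81 probe sets, out of 15115 genes on 29254 probe sets. Each subclone, untreated and grown in DMEM with fetal bovine serum, penicillin and streptomycin, was hybridized to 1 array. Every value is therefore a single measurement, no test between the subclones is possible, and each line stands only for itself as a model of glioma in culture.

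ABC proteins couple the binding and hydrolysis of ATP to the movement of substrates across membranes. Subfamily A handles mainly lipids, B holds the multidrug transporter P-glycoprotein and transporters of mitochondria and lysosomes, C the multidrug resistance-associated proteins, D transporters of peroxisomes and lysosomes, and G sterol and drug exporters. Subfamilies E and F carry the ATP-binding domains without a membrane part and act in translation. In brain tumours the family is known above all for drug efflux by ABCB1, ABCC proteins and ABCG2, in tumour cells and in the endothelium of the blood-brain barrier.

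Among the measured members, 2 drug and anion exporters, ABCC5 (6.14-fold) and ABCB1 (5.75-fold), were higher in J3T-1. The fold of ABCC5 is that of the brightest of its 4 probe sets, and its log2 ratio went from -2.62 to -1.45 with the median over them and to a bound of -0.97 when signals under the 75th percentile were set to it. The lipid transporter gene ABCA5 (3.23-fold) and the lysosomal transporter gene ABCD4 (2.21-fold) were higher in J3T-2. ABCD4 fell under 2-fold once the arrays were centred on their median gene or quantile-normalized, with log2 ratios of 0.97 and 0.92, and also with the median over its probe sets (0.30) and with 16 added to each signal in place of a minimum signal (0.80). The other measured members had folds or lower bounds under 2, or no fold. The subfamily ABCG, ABCG2 included, was below the median signal on both arrays. In such bulk RNA, fewer cells with a transcript and less of it per cell cannot be told apart.

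Signals are MAS5 intensities on a linear scale. The median signal over non-control probe sets, 19.0 in J3T-1 and 22.0 in J3T-2, served as the floor: a lower signal was set to it before a ratio was taken. The fold then gives only a minimum and is marked by "at least". Where that minimum was under 1, or both signals were below, the fold was left out. A gene was read from its probe set of highest mean log2 signal, and called measured if the signal exceeded the median on 1 array or both. Log2 ratios are J3T-2 over J3T-1. Their median over all measured genes was 0.17, so that small positive values are close to the typical gene. The SD of log2 ratios between probe sets of a gene, 0.261 over 4580 genes, is the only spread available, and it is technical. It was 0.377 over the 9 ABC genes with several probe sets above the median on both arrays. Taken within the same 2 arrays, it holds no variation between arrays or cultures.

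Of the 39 ABC genes, 13 were above the median on both arrays, namely ABCA1, ABCA5, ABCB1, ABCB6, ABCC1, ABCC5, ABCC10, ABCD3, ABCD4, ABCE1, ABCF1, ABCF2 and ABCF3. ABCB9 and ABCC6 were above it in J3T-1 only, and ABCC4 in J3T-2 only. The remaining 23 genes were below it on both. The measured share was therefore 16 of 39, or 41.0%, against 62.4% of all genes. By probe set, 29 of 81 were above the median on both arrays, 2 in J3T-1 only, 1 in J3T-2 only and 49 on neither. Those 49 had signals of 0.1 to 15.3 in J3T-1 and 0.5 to 21.2 in J3T-2. A signal below the median gives an upper bound, so these values do not show that a transcript was missing. The genes just outside the threshold were ABCB8 (21.2), ABCB4 (18.4) and ABCA4 (17.9), all in J3T-2, and the one just inside it was ABCC6, with 19.3 in J3T-1.

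**Figure D1:**
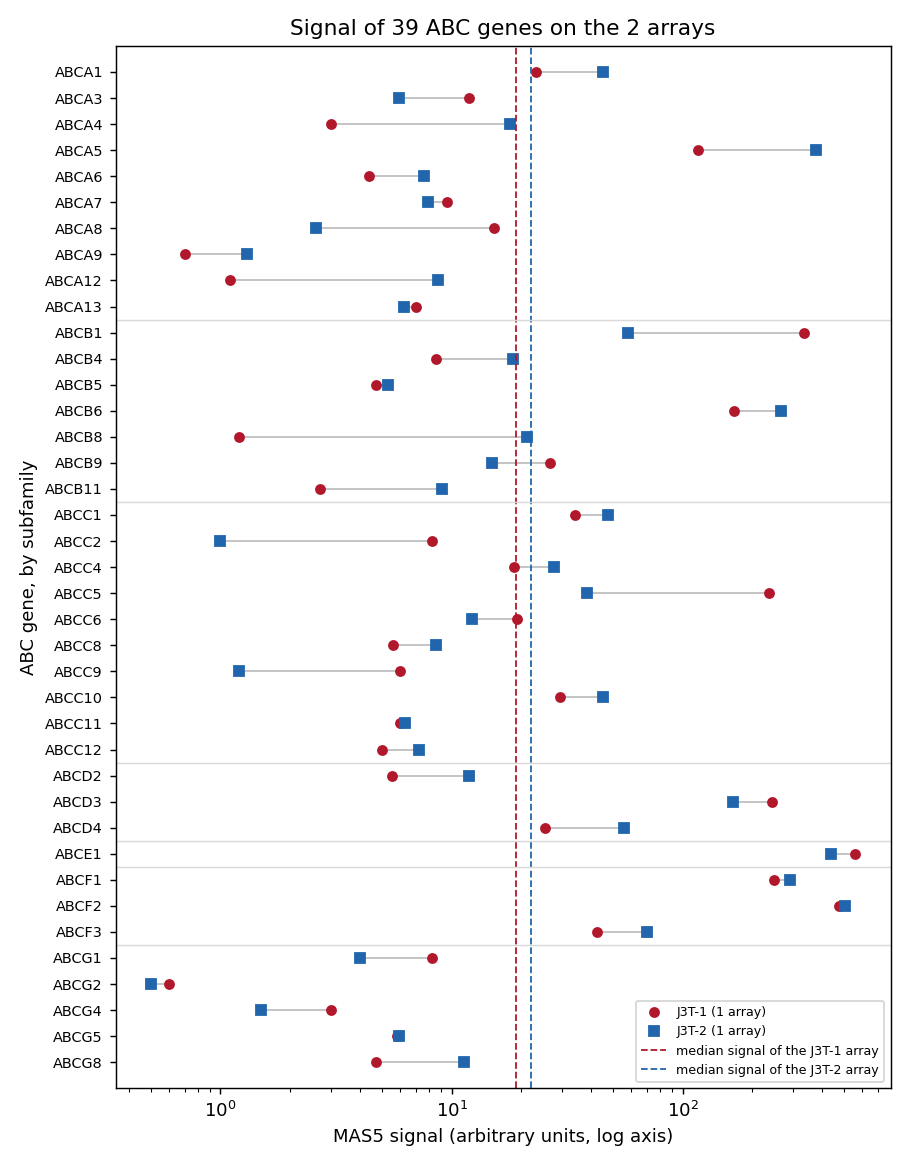
MAS5 signal (log axis, arbitrary units) of each of 39 ABC genes in J3T-1 (circles) and J3T-2 (squares), 1 array each, by subfamily. Dashed lines mark the median signals of 19.0 and 22.0; 13 genes lie above both, all 5 ABCG genes lie below both, and ABCB1 (334.3 and 58.1) and ABCC5 (235.9 and 38.4) have the widest gaps among the genes above both.

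Of the 16 measured members, 2 were past 2-fold towards J3T-1, beside 3.49% of 9433 measured genes. Another 2 were past 2-fold towards J3T-2, beside 7.28% of all measured genes. In either direction this was 4 of 16, against 10.8% of all genes, and with so few members nothing particular to the family can be read from it. Of the 15 members with a ratio, 10 were positive and 5 negative. ABCF2, one of the 10, turned negative (-0.08 and -0.07) when the arrays were centred or quantile-normalized. The median log2 ratio was 0.47, which lies 0.30 above that of all genes. It was 0.15 after quantile normalization and -0.13 with the floor raised to the 75th percentile, where 8 members were left. The median of all genes was then -0.02 and 0.15.

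**Figure D2:**
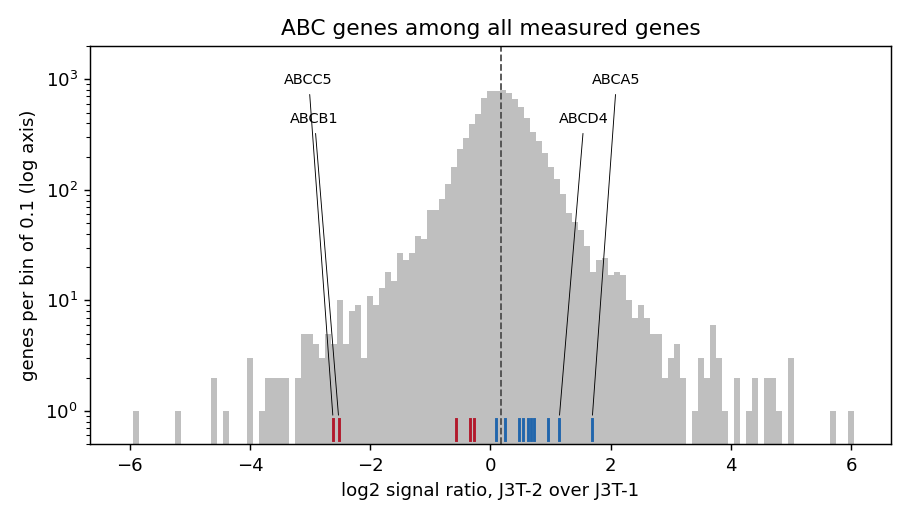
Log2 signal ratios (J3T-2 over J3T-1) of all measured genes with a ratio, as a histogram with a log count axis; short coloured marks at the bottom are the 15 ABC members and the dashed line is the median of all genes (0.17). ABCC5 and ABCB1 lie on the side of J3T-1 at -2.62 and -2.52, ABCA5 and ABCD4 on the side of J3T-2 at 1.69 and 1.14, and the other members lie between -0.57 and 0.96.

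Subfamily ABCB went both ways, with ABCB1 far towards J3T-1 and ABCB6 modestly towards J3T-2. ABCB1 encodes P-glycoprotein, the broad-specificity drug exporter of the plasma membrane. The J3T-1 signal was 334.3 and the J3T-2 signal 58.1, both above the array medians, and the log2 ratio of -2.52 lay at -2.70 from the median of all genes. The gene has a single probe set under its symbol, whose _s_at suffix marks probes that can match more than 1 transcript. No second probe set with that symbol bears on the value, and the gene drops out when _s_at probe sets are left out. With the floor at the 75th percentile, which J3T-2 does not reach, the log2 ratio was bounded at -1.47.

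The close relatives of ABCB1 were below the median. ABCB4, the phosphatidylcholine floppase of bile, had signals of 8.6 and 18.4 on 1 probe set and 1.0 and 14.7 on the other. Both probe sets were below the median on both arrays, and their higher raw value was that of J3T-2. The second one shares the first part of its name, Cfa.19, with the ABCB1 probe set, and whether it reads ABCB1 was not tested. ABCB5, which marks stem-like cells in some tumours, had 4.7 and 5.3, and the bile salt exporter gene ABCB11 had 2.7 and 9.1, all below the median.

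The organelle members of ABCB were read less uniformly. ABCB6, linked to porphyrin transport, had signals of 167.0 (J3T-1) and 265.7 (J3T-2), that is 1.59-fold. Its other probe set gave 126.7 and 248.0 (1.96-fold). Both probe sets were thus higher in J3T-2 and both stayed under 2-fold. The lysosomal peptide transporter gene ABCB9 had 26.7 and 15.0, above the median in J3T-1 only, which makes it at least 1.21-fold higher there. The mitochondrial transporter gene ABCB8 had 1.2 and 21.2, below the median on both arrays. The median log2 ratio of the 3 measured ABCB genes was -0.28, a value that is the bound of ABCB9 itself. It became 0.67 under the lower, 25th-percentile floor, which lets in more members. Without ABCB1 and the other _s_at and _x_at probe sets it was 0.97, the value of ABCB6 alone.

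Subfamily ABCC was divided between ABCC5, higher in J3T-1, and 3 members modestly higher in J3T-2. ABCC5, or MRP5, exports cyclic nucleotides and other organic anions, including nucleotide analogues. Its 4 probe sets were all above the median on both arrays and all higher in J3T-1. They read 235.9 and 38.4 (6.14-fold), 93.0 and 32.3 (2.88-fold), 99.9 and 56.0 (1.78-fold), and 44.3 and 26.3 (1.68-fold). The direction was shared by all 4 probe sets, while 2 of the 4 were at least 2-fold apart. The log2 ratio accordingly went from -2.62 to -1.45 when the median over probe sets was taken. With the floor at the 75th percentile it was bounded at -0.97, under 2-fold. The SD of the log2 ratio between these probe sets was 0.863, above the 0.261 of genes in general.

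The other drug-exporting ABCC genes were dim, and their folds or bounds were under 2. ABCC1, or MRP1, which exports glutathione conjugates and several anticancer drugs, had signals of 34.3 (J3T-1) and 47.5 (J3T-2), that is 1.38-fold, and 31.0 and 41.8 (1.35-fold) by its other probe set. ABCC10, another drug exporter of the family, had 29.4 and 45.2 (1.54-fold). ABCC4, an exporter of cyclic nucleotides and prostaglandins, had 18.7 and 27.7, a difference of at least 1.46-fold towards J3T-2. Its J3T-1 signal was just below the median. Each of these was higher in J3T-2 also after centring, at log2 ratios of 0.30, 0.45 and 0.37 in that order. ABCC6 had 19.3 and 12.3 and no fold, since its bound was under 1.

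The remaining ABCC genes were below the median on both arrays. These were ABCC2 (8.2 and 1.0), which encodes the canalicular exporter MRP2, ABCC8 (5.6 and 8.6) and ABCC9 (6.0 and 1.2), which encode the sulphonylurea receptors of ATP-sensitive potassium channels, ABCC11 (6.0 and 6.3) and ABCC12 (5.0 and 7.2). KCNJ8 and KCNJ11, which encode the pores that pair with those receptors, were also below the median, at 8.1 and 5.2, and 14.1 and 9.7. The median log2 ratio of the 4 ABCC genes with a ratio was 0.51, with the sign set by the 3 dim members. It was -1.07 without _s_at and _x_at probe sets, and -0.97 with the floor at the 75th percentile, where ABCC5 alone was left.

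In subfamily ABCA, 2 of 10 genes were measured and both were higher in J3T-2. ABCA5, a lipid transporter of lysosomes and late endosomes, had signals of 117.2 (J3T-1) and 378.8 (J3T-2), that is 3.23-fold. Its other probe set gave 48.4 and 148.7 (3.07-fold). The SD between these 2 probe sets was only 0.05 (log2), and ABCA5 stayed at least 2-fold higher under all 7 alternative settings, between 1.50 and 1.69 in log2. ABCA1, which loads cholesterol and phospholipid onto apolipoprotein A-I, had 23.2 and 45.2 (1.95-fold). The J3T-1 value is close to the median of 19.0, and its other 2 probe sets were below the median on both arrays, at 13.0 and 18.6, and 5.5 and 0.6.

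The other ABCA genes were below the median on both arrays. ABCA6 (4.4 and 7.6), ABCA8 (15.3 and 2.6) and ABCA9 (0.7 and 1.3) share chromosome 9 with ABCA5 but did not share its signal. ABCA3 (11.9 and 5.9), the surfactant lipid transporter, ABCA4 (3.0 and 17.9), the retinoid transporter of photoreceptors, ABCA7 (9.6 and 7.9), ABCA12 (1.1 and 8.7), which acts in skin lipid transport, and ABCA13 (7.0 and 6.2) completed the subfamily. The median log2 ratio of the 2 measured genes was 1.33. With the floor at the 25th percentile, which lets in more members, it was 0.79.

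Subfamily ABCD went both ways. ABCD3, the transporter of branched-chain and other acyl-CoA into peroxisomes, had signals of 244.9 (J3T-1) and 165.0 (J3T-2), that is 1.48-fold higher in J3T-1. Its other probe set was below the median, at 11.0 and 10.9. ABCD4, which acts in the release of vitamin B12 from lysosomes, had 25.3 and 55.9 (2.21-fold higher in J3T-2), and 25.7 and 32.9 (1.28-fold) by its second probe set above the median. The J3T-1 signals are near the median, and taking the median over all 4 probe sets brought the log2 ratio from 1.14 to 0.30. ABCD2, another peroxisomal fatty acyl-CoA transporter, was below the median at 5.5 and 11.9.

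The soluble members of subfamilies ABCE and ABCF were all measured and lay within 2-fold. ABCE1, the ribosome recycling factor, had signals of 559.4 (J3T-1) and 441.1 (J3T-2), that is 1.27-fold higher in J3T-1. Its other probe sets gave 1.17-fold and 1.01-fold in the same direction. ABCF1, which acts in translation initiation, had 248.0 and 292.8 (1.18-fold towards J3T-2), and the other probe sets above the median gave 1.22-fold and 1.40-fold. ABCF2 had 475.9 and 507.4 (1.07-fold, and 1.07-fold to 1.33-fold by its other 3). ABCF3 had 42.6 and 70.3 (1.65-fold, and 1.35-fold and 1.07-fold by its other 2). The median log2 ratio of the 3 ABCF genes was 0.24, or 0.07 above that of all genes, a distance within the SD between probe sets.

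Subfamily ABCG was below the median throughout. Its 8 probe sets had signals of 0.4 to 8.2 in J3T-1 and 0.5 to 11.3 in J3T-2. ABCG2, the breast cancer resistance protein, had 0.6 and 0.5 on 1 probe set and 0.4 and 0.6 on the other. The sterol exporter gene ABCG1 had 8.2 and 4.0, ABCG4 had 3.0 and 1.5, and the partners ABCG5 and ABCG8, which form the sterol exporter of liver and gut, had 5.8 and 5.9, and 4.7 and 11.3. No fold is given for any of them.

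**Figure D3:**
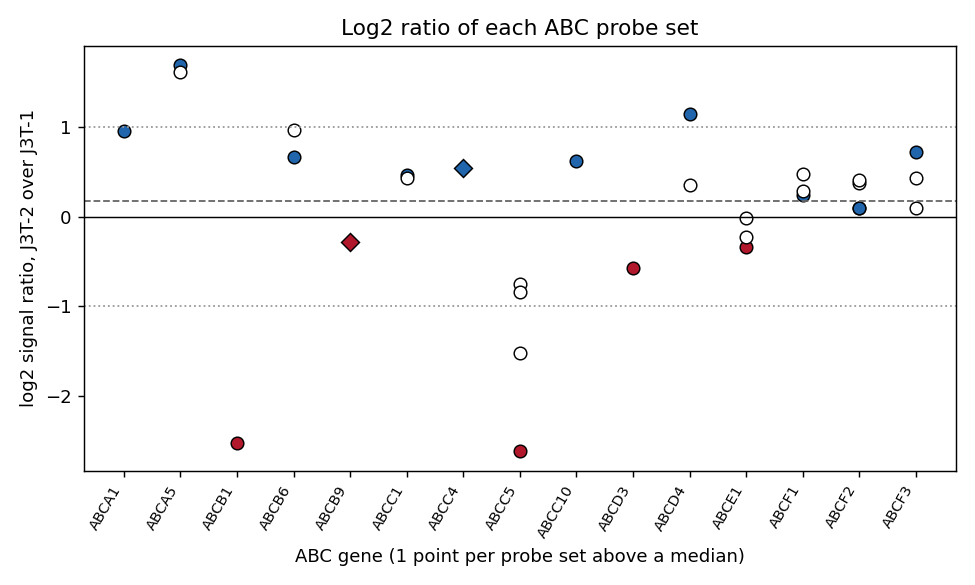
Log2 signal ratio (J3T-2 over J3T-1) of each ABC probe set above the median on at least 1 array and with a fold; filled points are the probe set that represents the gene, open points its other probe sets, and diamonds lower bounds. The dashed line is the median of all genes (0.17) and dotted lines mark 2-fold; all 4 ABCC5 points lie below 0, between -2.62 and -0.75, and both ABCA5 points lie above 1.

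Where a member had several probe sets above the median on both arrays, they pointed the same way. This held for all 9 such genes, ABCA5, ABCB6, ABCC1, ABCC5, ABCD4, ABCE1, ABCF1, ABCF2 and ABCF3. Set against the median of all genes in place of 0, the probe sets of 7 of the 9 lay on 1 side, and those of ABCF2 and ABCF3 lay on both. For ABCE1, ABCF1, ABCF2 and ABCF3 the log2 ratio nearest to 0 was -0.01, 0.24, 0.09 and 0.09, each within the SD between probe sets. ABCB1, ABCA1, ABCC10 and ABCD3 each rested on 1 probe set above the median on both arrays.

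The family members with other names were also read. TAP1 and TAP2 encode the ABC transporter that carries peptides into the endoplasmic reticulum for antigen presentation, and belong to subfamily B by sequence. TAP1 had signals of 181.2 (J3T-1) and 283.6 (J3T-2), that is 1.57-fold, and its other 2 probe sets gave 1.54-fold and 1.35-fold. TAP2 had 206.6 and 320.4 (1.55-fold), while its other probe set above the median had 77.8 and 76.9. CFTR, the chloride channel of subfamily C, was below the median at 1.0 and 0.7. TAP1 and TAP2 thus lay within 2-fold.

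The chromosomes of the ABC genes differed in their typical ratio. By gene order in the assembly UU_Cfam_GSD_1.0, used only to find neighbours, ABCB1 lies on chromosome 14, whose median log2 ratio was the lowest of 39 chromosomes with at least 50 measured genes, at -0.27 over 150 other genes. ABCB1 lay at -2.25 from that median. Of its 10 nearest measured neighbours, 6 were towards J3T-1 and 4 towards J3T-2, with a median of -0.06. The mitochondrial carrier gene SLC25A40, next to ABCB1 among the measured genes, had signals of 185.5 and 89.6 (2.07-fold higher in J3T-1). ZNF804B went the other way, with 1.0 and 97.3 (5.12-fold or more towards J3T-2). CROT, DBF4 and NDUFA5 were also towards J3T-1, at log2 ratios of -0.52, -0.59 and -0.57. The part of the chromosome in the ratio of ABCB1 was not tested.

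ABCA5 lies on chromosome 9, whose median log2 ratio of 0.59 over 572 other genes was the second highest. On that chromosome 17.1% of the other genes were past 2-fold towards J3T-2, against 7.28% of all genes. ABCA5 lay 1.11 above the chromosome's median. Among its 10 neighbours, SOX9 (51.8 and 113.1, 2.18-fold) and MAP2K6 (12.3 and 76.7, at least 4.04-fold) were higher in J3T-2, and FAM20A (79.2 and 5.5, at least 3.6-fold) was higher in J3T-1. What part the chromosome has in the ratio of ABCA5 was not tested.

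Around ABCC5 on chromosome 34, 0 of 10 neighbours were at least 2-fold apart, and the log2 ratios of the 9 that had one lay between -0.49 and 0.72. ABCF3 was one of these neighbours, with a ratio opposite in sign to that of ABCC5. Next to ABCD4 on chromosome 8 lay NPC2, the lysosomal cholesterol carrier gene, with signals of 284.4 and 844.7 (2.97-fold higher in J3T-2). The other 9 neighbours of ABCD4 were within 2-fold. The chromosome medians here were 0.18 and 0.20, close to that of all genes.

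**Figure D4:**
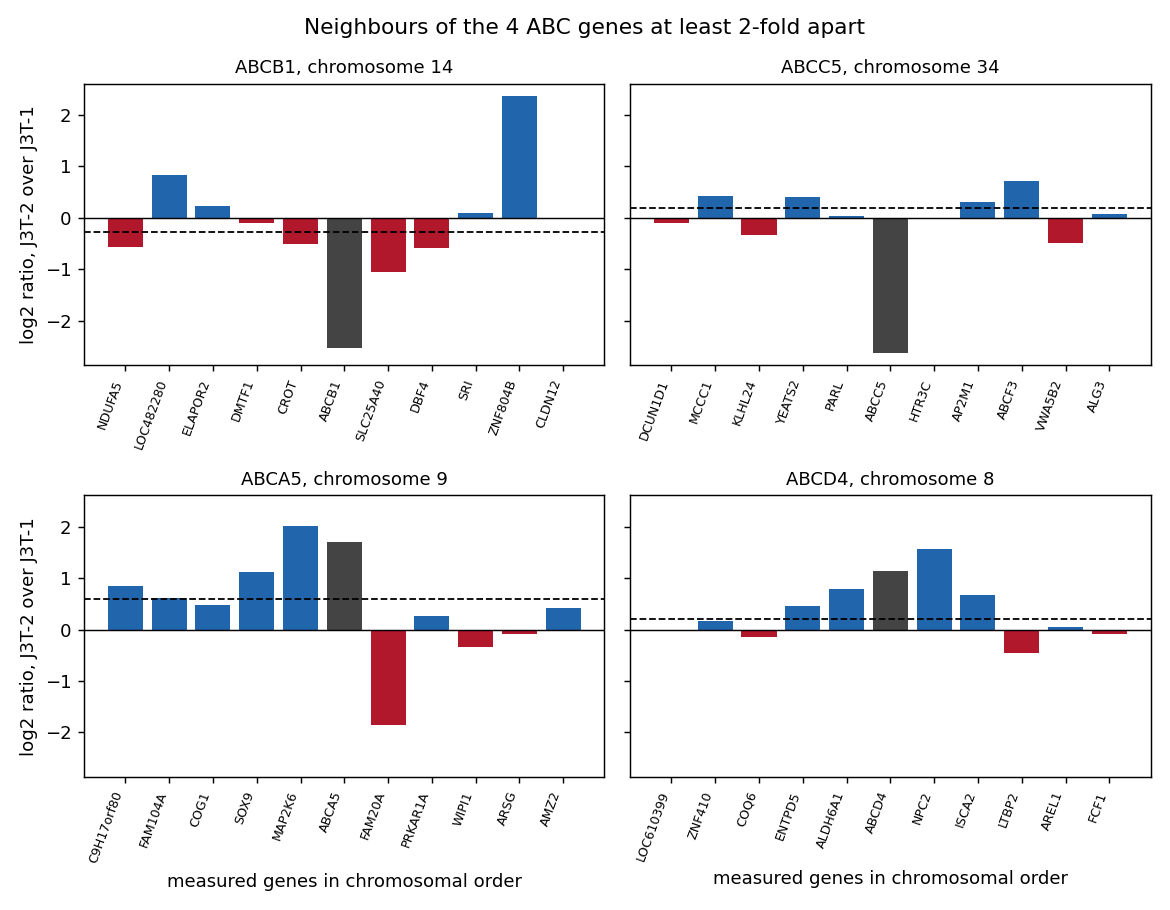
Log2 signal ratio (J3T-2 over J3T-1) of ABCB1, ABCC5, ABCA5 and ABCD4 (dark bars) and the 5 nearest measured genes on either side, in chromosomal order; the dashed line is the median of the other measured genes of that chromosome, and a gap is a gene with a ratio near 0 or without one. ABCB1 (-2.52) and ABCC5 (-2.62) stand below all their neighbours, while ABCA5 (1.69) and ABCD4 (1.14) each have a neighbour with a larger ratio.

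Genes known to work with ABC transporters were counted from fixed lists by the same rule. In the sterol efflux list, 1 of 15 measured genes was past 2-fold towards J3T-1 (3.49% of all genes) and 2 were towards J3T-2 (7.28%), and the median log2 ratio was 0.05. NPC2 and LCAT, the cholesterol-esterifying enzyme of plasma (29.4 and 86.2, 2.93-fold), were higher in J3T-2. MYLIP, which degrades the LDL receptor and is a target of the sterol-sensing receptors LXR, was 2.15-fold higher in J3T-1 (105.0 and 48.9), and its further probe sets gave 2.13-fold and 2.23-fold. It was no longer past 2-fold under the 75th-percentile floor or with the pseudocount of 16. The LXR gene NR1H2 had 171.8 and 185.7, and NR1H3 22.9 and 29.6.

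Glutathione genes, which supply the conjugates that ABCC proteins export, had 4 of 12 measured members past 2-fold towards J3T-2 (7.28% of all genes) and 0 towards J3T-1 (3.49%), with a median of 0.47. The 4 became 2 under the 75th-percentile floor and with a pseudocount of 16 in place of the floor. The glutathione transferase gene GSTA4 had signals of 513.6 and 1416.6 (2.76-fold, and 2.99-fold by its other probe set). The glutathione-degrading enzyme gene CHAC1 had 24.6 and 64.1 (2.61-fold, and 1.74-fold by its other probe set), GSTZ1 18.8 and 46.2 (at least 2.43-fold) and the glutathione reductase gene GSR 229.8 and 479.4 (2.09-fold). The genes of the rate-limiting synthesis enzyme, GCLC and GCLM, were 1.05-fold and 1.28-fold higher in J3T-2. With ratios centred, GSR lay under 2-fold (0.89 in log2). The measured glutathione genes that were 2-fold apart were all higher in J3T-2, as were 67.6% of the 2-fold calls over all genes. ABCC5 was higher in J3T-1, and a link between them was not tested.

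Of 13 measured transcription factors known to act on drug efflux genes, 1 was past 2-fold towards J3T-2 and 0 towards J3T-1, with a median of 0.54, beside 7.28% and 3.49% of all genes. The gene past 2-fold was FOXO3, with signals of 45.0 and 160.6 (3.57-fold). The count towards J3T-2 was 0 under the 75th-percentile floor and without _x_at and _s_at probe sets, 2 with the median over probe sets and 3 under the 25th-percentile floor. The oxidative stress regulator gene NFE2L2 had 584.1 and 1084.1 (1.86-fold), and a further probe set above the median gave 2.08-fold. The xenobiotic receptor gene NR1I3 was below the median, at 7.6 and 1.3.

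Partners of the organelle and soluble members were counted beside 7.28% of all genes towards J3T-2 and 3.49% towards J3T-1. With so few genes, nothing particular to these lists can be read from the counts. Of 18 measured genes of peroxisome biogenesis and beta-oxidation, where ABCD3 acts, 1 was past 2-fold towards J3T-2, the catalase gene CAT (265.9 and 606.7, 2.28-fold), and the median was 0.07. Of 18 measured genes of iron-sulfur cluster and heme synthesis, 1 was higher in J3T-2, FDXR (30.6 and 74.6, 2.44-fold), and the median was 0.20. FDXR fell under 2-fold with the median over probe sets (0.75 in log2) and with the pseudocount (0.96), and was not past it under the 75th-percentile floor. All 24 genes of ribosome recycling and the integrated stress response were measured and 0 were 2-fold apart, with a median of 0.07. The same count was 0 of 12 for the membrane scaffolds of efflux transporters, with a median of 0.12. It was 1 towards J3T-1 under the 25th-percentile floor. Towards J3T-2 it was 1 with the median over probe sets and without _x_at and _s_at probe sets. The further probe set of RAB5A was 2.28-fold higher in J3T-2 (48.0 and 109.6). In the main setting, no list held a member 2-fold higher in J3T-1 besides MYLIP.

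Because ABCB1 and ABCG2 are also genes of brain endothelium, markers of other cells were read beside them. Of 13 endothelial markers, 7 were measured and 0 were at least 2-fold apart. The signals of the list summed to 282.7 and 224.5. The sums of this list and of the other marker lists include signals below the median. The median log2 ratio of the 7 was -0.47, with 5 of them towards J3T-1, the side of ABCB1. Each of those 5 rested on 1 probe set above the median, and 3 of them were above it in J3T-1 only. The number at least 2-fold apart was 3 towards J3T-1 under the 25th-percentile floor and 1 after quantile normalization. With the median over probe sets it was 1 towards J3T-2. CD34 had 43.4 and 24.5 (1.77-fold), CDH5 36.8 and 26.5 (1.39-fold), ROBO4 33.2 and 10.6 (at least 1.51-fold), ERG 30.7 and 11.9 (at least 1.40-fold) and EMCN 27.3 and 19.3 (at least 1.24-fold). EGFL7 (44.0 and 74.7, 1.70-fold, and 2.57-fold by its other probe set) and VWF (21.0 and 22.8) were towards J3T-2. The other 6, among them CLDN5 (3.4 and 2.6), PECAM1 (8.8 and 6.7) and KDR (2.0 and 2.6), were below the median on both arrays.

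Of 10 leukocyte markers 4 were measured, with 0 at least 2-fold apart and sums of 91.8 and 140.7, and PTPRC was at 5.6 and 7.5. Among glioma and astrocyte markers 8 of 12 were measured, with sums of 9516 and 11966. Of the 8, 5 were past 2-fold towards J3T-2 beside 7.28% of all genes, including FABP7 (at least 4.32-fold), SLC1A3 (3.11-fold) and SOX2 (2.90-fold). That count was 4 after centring, 3 after quantile normalization and with the pseudocount, and 2 under the 75th-percentile floor and without _x_at and _s_at probe sets. GFAP (5.1 and 15.7), S100B (1.1 and 5.0), AQP4 (2.0 and 5.5) and SLC1A2 (2.6 and 5.9) were below the median on both arrays, while SOX2, SLC1A3 and VIM (8129.9 and 7960.8) were above it. VIM is also expressed by mesenchymal cells, and it makes up most of each sum of this list.

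Pericyte and fibroblast markers had 5 of 11 measured, with sums of 7667 and 9125. Beside 7.28% of all genes, 2 of the 5 were past 2-fold towards J3T-2, COL1A1 (8.12-fold) and ACTA2 (6.17-fold). The log2 ratio of ACTA2 went from 2.63 to 0.40 under the 75th-percentile floor. COL1A2 (3356.0 and 5736.0) was 1.71-fold higher in J3T-2 by its brightest probe set, and 3.43-fold, 3.45-fold and 4.42-fold by its others. The list count towards J3T-2 was 3 with the median over probe sets and without _x_at and _s_at probe sets. Under the 75th-percentile floor it was 1. LUM (4131.1 and 2559.1) was 1.61-fold higher in J3T-1. The other 6 markers, COL3A1, PDGFRB, RGS5 and CSPG4 included, were below the median on both arrays. The part of other cells in the ABC values was not tested. The 3' over 5' signal ratio was 1.92 (J3T-1) and 1.61 (J3T-2) for actin by the 5' probe set with an _s_at suffix, 5.01 and 4.24 by the other actin 5' probe set, and 1.44 and 1.37 for GAPDH.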

How the data were processed

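Total RNA of each subclone was labelled as biotinylated cRNA and hybridized to a 1-colour canine array, per the labels' protocols. The deposited values are linear signal intensities, 1 per probe set and array, made by the authors with MAS5, per the submitters' processing notes. For version, scaling target and genome build, nothing is given in the sources used here. Of 42924 non-control probe sets, 29254 had 1 symbol in the array annotation, 439 had several and 13231 had none. Of the 39 ABC genes, 38 had the same symbol in the RefSeq table by gene ID. Zeros were ranked as 0.1. Genes whose bound was under 1 have no ratio and stay out of medians.

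With 1 array per subclone the number of arrays limits the precision, and genes were counted by a 2-fold rule. Every measured ABC gene was named, and from each list up to 4 members at least 2-fold apart; others were chosen after their values were seen. The members and lists were chosen with earlier results of these data known. Alternatives were centring, quantile normalization, a lower (25th percentile) and a higher floor (75th percentile), a pseudocount of 16 in place of a floor, probe sets summarised by their median, and leaving out _x_at and _s_at probe sets. The counting was tested on simulated data. Differences were planted only in genes brighter than the typical gene, so that test does not bear on members near the floor. The added noise was below the SD between probe sets, which made the test easier than the measured data for all genes. Python 3.11.15, numpy 2.4.6, pandas 2.3.3 and matplotlib 3.10.9 were used.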

Additional observations from a re-analysis of the deposited data

How the results depend on the processing

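The counts of ABC genes moved with the settings. The number at least 2-fold higher in J3T-1 was 4 under the low floor (25th percentile) and 1 under the high floor (75th percentile). It was 1 without _x_at and _s_at probe sets. Over all measured genes the shares towards J3T-1 were 6.49%, 2.31% and 3.38% in that order, against 3.49% in the main setting. The number higher in J3T-2 was 8 under the low floor, where the share of all genes was 11.3%, and 1 under the high floor (5.04%). It was also 1 after centring (4.89%), after quantile normalization (4.64%) and with the median over probe sets (6.75%). The share in the main setting was 7.28%. With so few members nothing particular to the family can be read from these counts. The low floor of 4.4 and 5.0 admits 36 of 39 genes. With a pseudocount in place of a floor, the 2 genes higher in J3T-2 were ABCA5 and ABCB8, and ABCD4 was not among them. All genes then had 1.98% towards J3T-1 and 3.53% towards J3T-2. These shares of all genes also stand beside the list counts given under the same settings.

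The median log2 ratio of ABC genes, 0.47, was 0.15 after quantile normalization, -0.13 under the high floor and 0.0895 with no floor. The median of all genes, 0.17, was then -0.02, 0.15 and 0.07 in that order. The value with no floor covers all 39 ABC genes. Under the low floor, ABCA was at 0.79, ABCB at 0.67 and ABCD at 1.11. Under the high floor, ABCA was at 1.69 (ABCA5 alone), ABCC at -0.97 (ABCC5 alone) and ABCD at -0.57 (ABCD3 alone). With no floor, where every listed gene entered, ABCA was at 0.13, ABCB at 0.42 and ABCC at 0.0816. With the median over probe sets, ABCA was at 1.66 (ABCA5 alone) and ABCE at -0.0090. Without _x_at and _s_at probe sets, ABCA was at 1.62 (ABCA5 alone), ABCB at 0.97 (ABCB6 alone) and ABCC at -1.07. ABCD was then at 1.14 (ABCD4 alone) and ABCE at -0.0090. Quantile normalization put ABCC at 0.24. ABCF stayed within the SD between probe sets of its 0.24 under all 7 alternatives. These subfamily medians rest on 1 to 4 genes in the main setting. The genes that enter can differ between settings, so a shift in a median need not be a shift of the same genes.

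None of the 4 ABC genes at least 2-fold apart changed direction where it could be read. ABCB1 ranged from -2.72 to -1.47 in log2, ABCC5 from -2.83 to -0.97, ABCA5 from 1.50 to 1.69 and ABCD4 from 0.30 to 1.14. Across all genes the share of 2-fold calls higher in J3T-2 was 67.6%, and 50.8% after centring and 48.4% after quantile normalization. The companion lists were recomputed under the same settings, a choice made after seeing the data, and no companion gene at least 2-fold apart changed sign. No paired analysis was possible because each subclone has 1 array. ABCA1, ABCB9, ABCC4, ABCC6 and ABCD4 have a signal near or below the median on 1 array or both.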
